A study of Mus musculus with 12 samples.

Results

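The nuclear genes of oxidative phosphorylation were followed in single whole mouse embryos with and without the homeodomain repressors Tgif1 and Tgif2. Genes were taken by symbol. They are the Nduf, Sdh, Uqcr, Cox and Atp5 subunit genes with Cyc1 and Cycs, which gave 86 of the 23284 rows of the count table. By the complex their symbols name, 35 belong to complex I, 4 to complex II, 9 to complex III, 20 to complex IV and 17 to complex V, and Cycs encodes cytochrome c. Ndufa4, once counted with complex I, and its relative Ndufa4l2 were placed with complex IV. Cox7a2l, Atp5s and Atp5sl match the symbols but are not counted as subunits of the enzymes.

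The RNA came from embryos at 9.0 dpc with about 9 to 10 somites, on a mixed C57BL/6 x 129Sv background. The wild-type (WT) group had 4 embryos. The other group had 8 embryos titled CDKO, which the series text describes as conditional mutants that carry no intact allele of either gene. The sources used here do not give the Cre driver, the deleted exons, the sex of the embryos, or any litter or library batch. Polyadenylated RNA was sequenced in read pairs of 50 bases and counted per gene. The libraries held 17296017 to 20080786 counts in WT and 16802367 to 21346245 in CDKO. Tgif1 fell from 60.9 ± 2.52 (SD, n = 4) to 6.2 ± 0.528 CPM (SD, n = 8), where CPM is the count scaled by library size, and its log2 fold change was -3.29 (SE 0.07, adjusted p = 1.95e-14). Tgif2 was not lower, at 87.3 ± 1.17 CPM in WT and 97.9 ± 11.8 CPM in CDKO (log2 fold change 0.16, SE 0.08, adjusted p = 0.0958), and its count does not check a deletion of part of the gene. The groups are therefore named by their labels. CDKO embryo 6 stood apart in trophoblast and decidua markers and CDKO embryo 2 in red cell markers, and counts without them are given with those markers. Over the whole table, 51.5% of the 14412 genes tested passed the test at an adjusted p of 0.05.

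Complexes I to IV pass electrons from NADH and succinate to oxygen and, except for complex II, pump protons across the inner mitochondrial membrane. Complex V, the ATP synthase, uses the proton gradient to make ATP. Complexes I, III, IV and V join subunits encoded in the mitochondrial genome with the nuclear-encoded ones described here. The mitochondrially encoded subunits were not analysed here. Early post-implantation embryos draw much of their ATP from glycolysis, and the early heart is among the first tissues to turn to oxidative metabolism.

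Promoters of these genes are known for short motifs bound by nuclear respiratory factor 1 (NRF1), by ETS factors such as the GA-binding protein, and by YY1. Stretches of 200 bases, 170 before and 30 from the annotated start, are shown for 4 genes that the results turn on. Cox6a1 and Sdhd were higher in CDKO, Sdha was the 1 gene that fell, and Ndufb11 had the highest fold change of complex I. Capitals mark matches on either strand to the NRF1 motif, which is GCGC, any base and then TGCGC, or to the ETS motif CCGGAAG, which reads CTTCCGG on the other strand. Coordinates and sequence are those of RefSeq on GRCm38.p6, and all 4 genes lie on the minus strand. The stretches are chr5:115348929-115349128 for Cox6a1, chr9:50603820-50604019 for Sdhd, chr13:74350211-74350410 for Sdha and chrX:20617590-20617789 for Ndufb11, each written 5′ to 3′ along the gene.
Cox6a1: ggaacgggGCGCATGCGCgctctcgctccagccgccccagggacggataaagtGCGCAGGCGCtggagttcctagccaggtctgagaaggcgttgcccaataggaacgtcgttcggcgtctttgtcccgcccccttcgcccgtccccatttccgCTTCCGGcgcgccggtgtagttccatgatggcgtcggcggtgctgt
Sdhd: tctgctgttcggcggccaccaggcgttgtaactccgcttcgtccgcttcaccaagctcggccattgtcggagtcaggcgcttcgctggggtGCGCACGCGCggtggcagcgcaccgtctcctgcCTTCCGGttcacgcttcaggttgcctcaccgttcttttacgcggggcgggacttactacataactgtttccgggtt
Sdha: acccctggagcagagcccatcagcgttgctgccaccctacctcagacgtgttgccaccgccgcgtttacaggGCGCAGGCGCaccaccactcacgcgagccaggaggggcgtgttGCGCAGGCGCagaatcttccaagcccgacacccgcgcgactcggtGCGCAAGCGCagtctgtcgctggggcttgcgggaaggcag
Ndufb11: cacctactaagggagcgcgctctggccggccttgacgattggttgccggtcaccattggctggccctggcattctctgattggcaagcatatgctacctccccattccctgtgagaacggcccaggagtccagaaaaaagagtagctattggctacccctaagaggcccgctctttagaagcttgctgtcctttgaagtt

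Cox6a1 has NRF1 matches that start 162 and 117 bases before the start and an ETS match at 16. Sdhd has an NRF1 match at 79 and an ETS match at 46. Sdha has 3 NRF1 matches, at 98, 55 and 10 bases before the start, and no ETS match. Ndufb11 has none of the motifs in this window. A match is only a run of letters and does not show that a factor binds there.

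RefSeq promoters of 300 bases were found for 70 of the 86 genes. The NRF1 motif was found in 17 of them (24.3%), against 5.19% of all 27025 genes with a promoter entry. Its palindromic form, with A as the free base and contained in the first count, was in 7.14% against 1.07%. The ETS motif CCGGAAG was in 16 (22.9%) against 9.93%, and the YY1 motif AAGATGGC in 11 (15.7%) against 3.19%. All were sought on both strands, and a promoter can hold more than 1. Of the tested genes with the NRF1 motif, 10 of 16 rose and 1 fell. With the ETS motif 10 of 16 rose, with the YY1 motif 7 of 11, and with none of the motifs 18 of 30. The shares that rose were thus 62.5%, 62.5%, 63.6% and 60.0%, and their differences were not tested. Of all 82 tested genes of the set, with or without a promoter entry, 59.8% rose. Over the whole table, 26.6% of genes tested were higher and 24.9% lower.

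Of the 86 genes, 82 had enough counts to be tested. Of these, 49 were higher in CDKO, 1 was lower and 32 did not pass, where 26.6% of all genes tested were higher and 24.9% lower. The median log2 fold change was 0.22 over these genes and 0.01 over all genes tested. The estimate was above 0 for 75 of 82. At an unadjusted p under 0.05 by edgeR, 54 were higher and 2 lower, and DESeq2 called 50 higher and 2 lower, the second being Ndufa12. In 41 genes every CDKO embryo lay above every WT embryo, a pattern seen in 17.5% of all genes tested. In 1 gene, Sdha, every CDKO embryo lay below every WT embryo, as in 17.1% of all genes tested. Most differences were small, and 9 genes rose by at least 1.5-fold, where 11.9% of all genes did. In whole-embryo RNA, a larger share of cells rich in these transcripts and more transcript per cell cannot be told apart. Genes like these are short and abundant, with a median transcript of 863 bases against 3003 for all tested genes, and a median of 89.7 against 27.1 CPM. Among 308 other genes with a transcript of at most 1000 bases and at least 20 CPM, 33.4% were higher, 11.7% were lower and the median was 0.07. With the trends on GC and length taken out, 39 of the 82 were higher and 7 lower with a median of 0.12, while all genes tested split into 3231 higher and 4477 lower in place of 3840 and 3583.

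**Figure D1:**
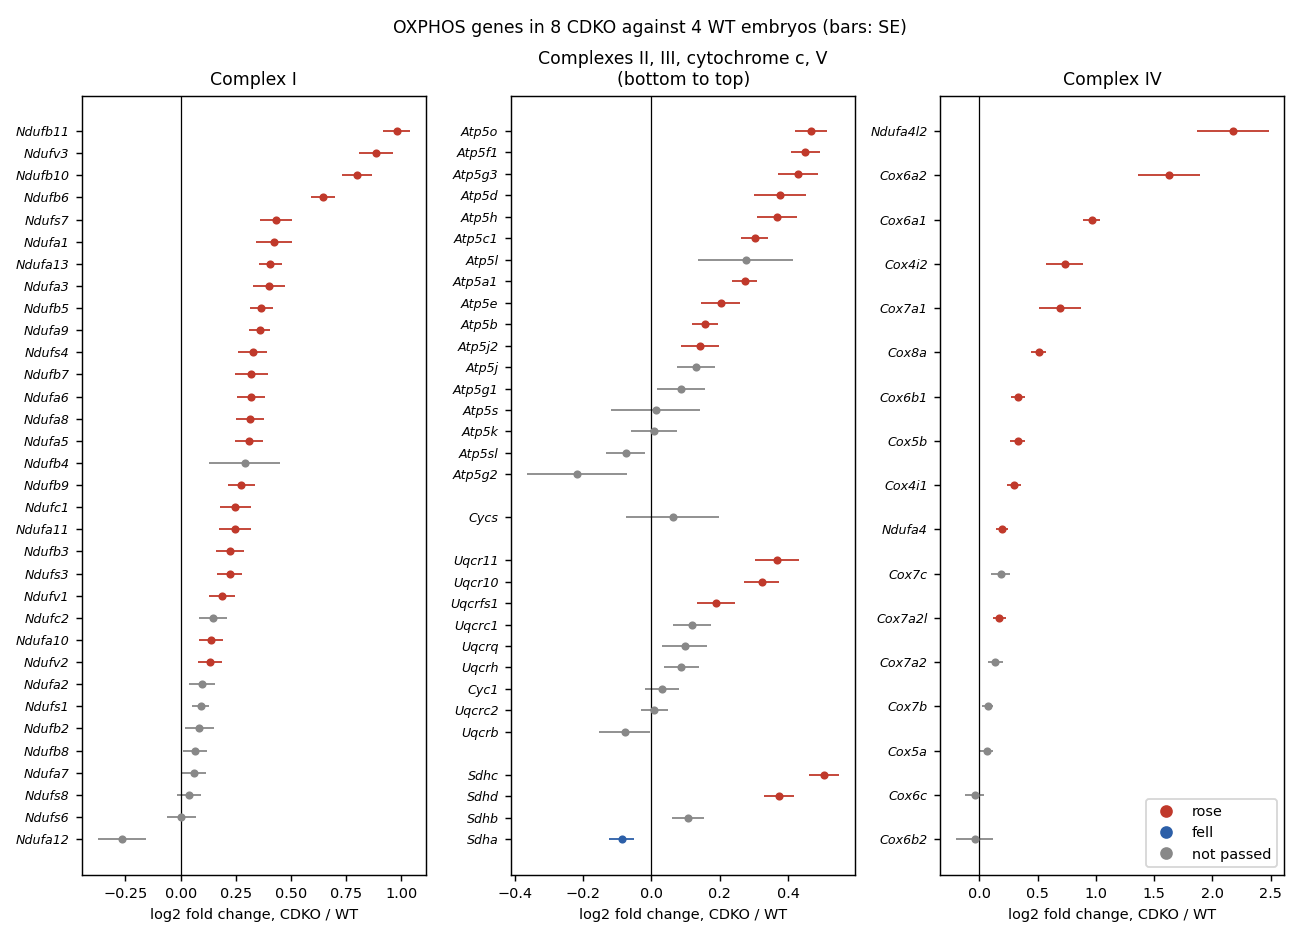
Log2 fold change of CDKO against WT (horizontal axis; its range differs between panels) for the tested genes except 1 of complex I, with bars of 1 SE; red marks genes that rose, blue the 1 that fell and grey those that did not pass. Complex I genes run from -0.27 to 0.98, and of those drawn only Ndufa12 lies left of 0.

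**Figure D2:**
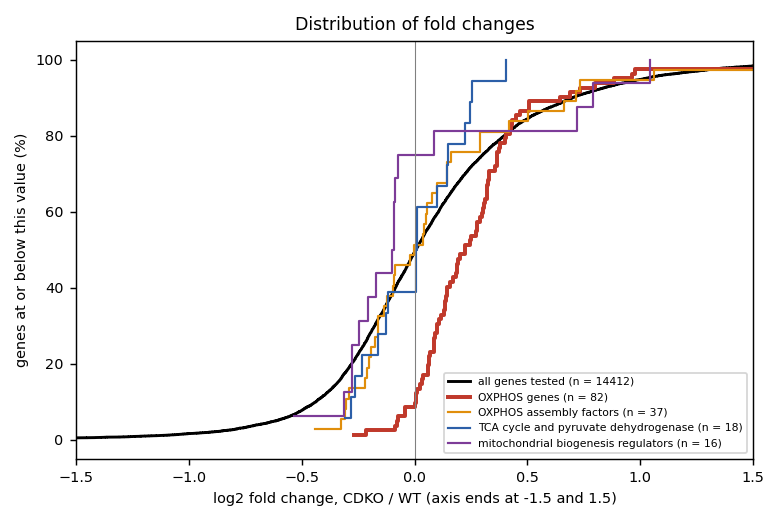
Share of genes at or below each log2 fold change (vertical axis, percent) for the 82 oxidative phosphorylation genes, all 14412 genes tested and 3 other mitochondrial gene lists. The curve of the 82 genes lies to the right of the others up to a log2 fold change of about 0.4, with its median at 0.22 against 0.01 for all genes.

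The median level of these genes was higher in each CDKO embryo than in any WT embryo. For each embryo, the log2 ratio of each gene to its WT mean was taken and the median formed over the 82 genes. It lay between -0.03 and 0.02 in the WT embryos and between 0.12 and 0.33 in the CDKO embryos, with a median of 0.22. CDKO embryo 1 was lowest, and embryos 2 and 6 were highest. The number of genes above the WT mean was 59 to 79 of 82 in CDKO embryos and 21 to 50 in WT embryos. These genes took 1.0% to 1.02% of all counts in WT and 1.11% to 1.3% in CDKO. The groups did not overlap in either measure of level. Complex III had the lowest of these medians, from 0.01 to 0.26 in CDKO, and its lower end overlapped the WT embryos (-0.05 to 0.02). For complexes I, II, IV and V the groups did not overlap.

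**Figure D3:**
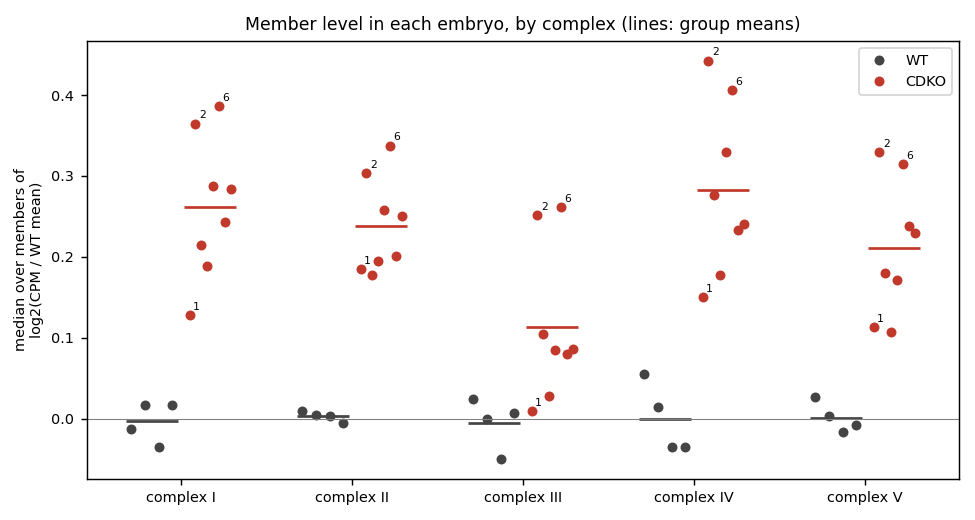
Median over the tested genes of each complex of the log2 ratio to the WT mean (vertical axis), 1 point per embryo, with lines at group means; CDKO embryos 1, 2 and 6 are numbered. Complex I points lie at 0.13 to 0.39 in CDKO and at -0.04 to 0.02 in WT, and the groups overlap only in complex III.

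Complex I, the NADH dehydrogenase, is built from conserved core subunits, which carry the flavin and the iron-sulfur clusters, and many accessory subunits around them. Of 34 genes tested, 23 rose and none fell by edgeR, with a median of 0.26. With DESeq2, and at an unadjusted p under 0.05 in edgeR, 1 was lower. In 18 genes every CDKO embryo lay above every WT embryo. Over all genes tested, 26.6% were higher and 17.5% were higher without overlap. The accessory genes had a median of 0.31 with 19 of 27 higher, and the nuclear core genes a median of 0.13 with 4 of 7 higher. The difference between these classes was not tested.

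All 4 genes of complex I that rose by at least 1.5-fold encode accessory subunits. Ndufb11 stood at 77.3, 77.4, 74.7 and 83.1 CPM in the WT embryos and at 139 (lowest), 153 (median) and 172 (highest) in CDKO. The groups lay far apart, and the log2 fold change was 0.98 (SE 0.06, adjusted p = 1.15e-08). Ndufb11, which is X-linked, has 1 near-identical copy, and 9.55% of its 50-base windows occur in transcripts of other genes. Ndufv3, next to the flavin-carrying subunit, was at 58.5, 57.4, 56.3 and 64.7 CPM in WT and at 95.5, 109 and 125 CPM in CDKO (0.88, SE 0.08, adjusted p = 2.96e-07). Ndufb10 was at 64.6, 71.2, 64.4 and 69.4 CPM in WT and at 108, 115 and 137 CPM in CDKO (0.80, SE 0.07, adjusted p = 2e-07). None of these genes overlapped between the groups. Ndufb6 was at 51.6, 54.5, 51.2 and 54.1 CPM in WT and at 77.3, 80.5 and 90.0 CPM in CDKO (0.64, SE 0.05, adjusted p = 2.42e-07). The annotated gene Smim27 runs antisense over 39.0% of Ndufb6 exon sequence, and without strand-specific counting their reads cannot be told apart. Ndufs7, a core subunit with an iron-sulfur cluster, rose less, from 72.9 ± 6.73 to 98.5 ± 8.77 CPM (0.43, SE 0.07, adjusted p = 0.000177).

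Some of the core genes and the genes with the lowest estimates follow. Ndufv1, the core subunit that takes electrons from NADH, was at 152, 151, 143 and 151 CPM in WT and at 148, 170 and 188 CPM in CDKO, and 7 of 8 CDKO embryos lay above all WT embryos. Its log2 fold change was 0.19 (SE 0.06, adjusted p = 0.0124), and the call ended without WT embryo 3 (0.16, adjusted p = 0.0546). The call also ended with GC and length trends removed and in a test against 1.2-fold. So it did with the red cell or heart muscle marker score, described below, as a covariate. Ndufs1, the largest core subunit, was at 130, 139, 138 and 136 CPM in WT and at 139, 143 and 152 CPM in CDKO. It did not pass (0.09, SE 0.04, adjusted p = 0.0589) although the groups did not overlap, and it passed without CDKO embryo 7 (adjusted p = 0.0471). Ndufs1 also passed as higher with upper-quartile scaling, with DESeq2, and with GC and length trends removed. Ndufs6 stood at 47.0 ± 0.887 CPM in WT and 47.1 ± 4.04 CPM in CDKO. Ndufa12 had the lowest estimate of all 82 genes, at 23.6, 26.5, 24.5 and 24.8 CPM in WT and 15.8, 20.7 and 24.6 CPM in CDKO (-0.27, SE 0.11, adjusted p = 0.052). Of 8 CDKO embryos, 6 lay below every WT embryo. Ndufa12 passed as lower without CDKO embryo 3 (adjusted p = 0.0281), 6 (0.0353) or 7 (0.0284), and 26.2% of its windows occur in other transcripts.

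Complex II, succinate dehydrogenase, is shared with the citric acid cycle and is encoded wholly in the nucleus. Of its 4 genes 2 rose, 1 fell and 1 did not pass, where 26.6% of all genes tested were higher and 24.9% lower. Those that rose encode the membrane anchors. Sdhc was at 136, 134, 134 and 131 CPM in WT and at 178, 189 and 206 CPM in CDKO (0.51, SE 0.04, adjusted p = 3.37e-07). Sdhd was at 133, 129, 128 and 130 CPM in WT and at 154, 167 and 183 CPM in CDKO (0.37, SE 0.04, adjusted p = 6.19e-06). Every CDKO embryo lay above every WT embryo for both genes.

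Neither catalytic subunit of complex II passed as higher. Sdhb, the iron-sulfur subunit, was at 114 ± 0.75 CPM in WT and 123 ± 7.02 CPM in CDKO (0.11, SE 0.05, adjusted p = 0.0683), and passed without CDKO embryo 1, 3 or 4 (adjusted p = 0.0406, 0.0408 and 0.0477). Sdha, the flavin subunit that oxidizes succinate, was at 299.46, 311, 310 and 316 CPM in WT and at 281, 293 and 299.38 CPM in CDKO (-0.09, SE 0.04, adjusted p = 0.0496). The highest CDKO embryo lay just under the lowest WT embryo, so the groups did not overlap. This call was the weakest made. It was lost in 9 of the 12 omissions of a single embryo, with adjusted p from 0.0506 to 0.141 in those 9, and held without WT embryo 1, CDKO embryo 6 or CDKO embryo 7.

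Complex III passes electrons from ubiquinol to cytochrome c. Of 9 genes tested, 3 rose (33.3%), near the 26.6% of all genes tested that were higher, and the median was 0.10. None of complexes III, IV and V had a lower gene by edgeR, DESeq2 or limma-voom, or at an unadjusted p under 0.05 in edgeR. The small subunit genes Uqcr11 and Uqcr10 rose by 0.37 (SE 0.06, adjusted p = 0.000207) and 0.32 (SE 0.05, adjusted p = 0.000118) on the log2 scale. Uqcr11 was at 47.4, 48.6, 45.4 and 53.4 CPM in WT and at 57.3, 62.0 and 69.9 CPM in CDKO, and Uqcr10 also separated the groups. Uqcrfs1, the Rieske iron-sulfur protein, was at 109, 114, 111 and 112 CPM in WT and at 117, 126 and 142 CPM in CDKO (0.19, SE 0.06, adjusted p = 0.0103). The other catalytic subunit measured, Cyc1 (cytochrome c1), did not pass, at 214 ± 6.96 CPM in WT and 219 ± 13.6 CPM in CDKO (0.03, SE 0.05). With GC and length trends removed Cyc1 was lower (-0.14, adjusted p = 0.018), and Ndufs6 turned likewise (-0.16, adjusted p = 0.00827). The structural core gene Uqcrc2 stood at 207 ± 5.44 and 208 ± 7.61 CPM. Uqcrb did not pass (-0.08, SE 0.08), and WT embryo 1 lay above the other embryos of its group. Cycs, the mobile electron carrier, stood at 4.65 ± 0.921 and 4.85 ± 0.582 CPM (0.06, SE 0.14, adjusted p = 0.73).

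Complex IV, cytochrome c oxidase, reduces oxygen to water. Of 17 genes tested, 11 rose (64.7%, against 26.6% of all genes tested) and the median was 0.30. Several of its subunits have paired genes, 1 used widely and 1 restricted to some tissues or states. Without the restricted ones, 7 of 12 rose with a median of 0.19. Among the 12 genes without the restricted forms, Cox6a1, the widely used form of subunit VIa, had the highest fold change. It was at 139, 137, 140 and 142 CPM in WT and at 233, 263 and 311 CPM in CDKO (0.96, SE 0.07, adjusted p = 8.72e-08), and the groups lay far apart. Cox8a rose from 151 ± 8.68 to 215 ± 17.3 CPM (0.51, SE 0.06, adjusted p = 1.1e-05). Cox4i1, the widely used form of subunit IV, was at 287, 294, 278 and 285 CPM in WT and at 316, 349 and 391 CPM in CDKO (0.30, SE 0.06, adjusted p = 0.000568). It separated the groups, but its call ended with GC and length trends removed (0.08, adjusted p = 0.0955). Cox5a stood at 144 ± 1.35 and 150 ± 12.5 CPM and did not pass (0.06, SE 0.06), and Cox6c, with a log2 fold change of -0.04 (SE 0.08), did not pass either.

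The restricted forms were rare in WT, and 4 of the 5 that were tested rose, where 26.6% of all genes tested were higher. Ndufa4l2, the relative of Ndufa4 that is induced by low oxygen in many cells, had the largest rise of the 82 genes. It was at 7.59, 4.10, 6.97 and 7.78 CPM in WT and at 14.8, 26.4 and 44.0 CPM in CDKO (2.18, SE 0.31, adjusted p = 9.71e-05). The lowest CDKO embryo was well above the highest WT embryo. Cox6a2, the heart and skeletal muscle form of subunit VIa, was at 1.85, 1.77, 1.5 and 1.2 CPM in WT and at 2.70, 4.93 and 7.16 CPM in CDKO (1.63, SE 0.27, adjusted p = 0.000137). Cox7a1, another muscle form, was at 2.49, 2.89, 2.30 and 1.99 CPM in WT and at 3.01, 3.64 and 5.52 CPM in CDKO (0.69, SE 0.18, adjusted p = 0.0047). Cox4i2, a form of subunit IV known from lung and responsive to oxygen, was at 9.85, 7.44, 9.10 and 8.57 CPM in WT and at 10.2, 13.4 and 18.9 CPM in CDKO (0.73, SE 0.16, adjusted p = 0.00134). None of these 4 genes overlapped between the groups, though Cox4i2 and Cox7a1 came close. Cox6b2, the testis form of subunit VIb, did not pass, at 3.11 ± 0.61 and 3.03 ± 0.48 CPM. Of the untested genes, Cox8c had no count and Cox7b2 1 count, while Cox8b, a muscle form, had 10 counts in all, every one in CDKO embryos.

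**Figure D4:**
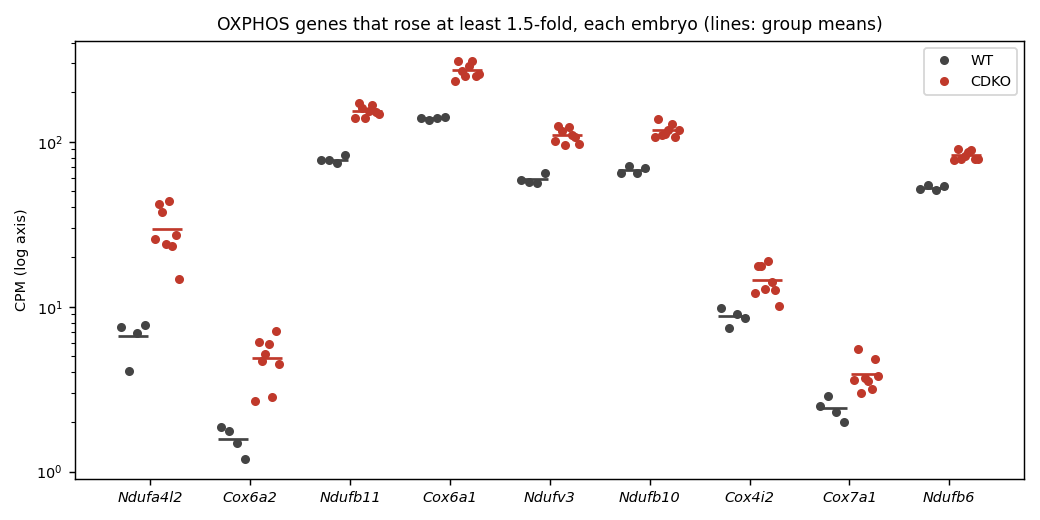
Level of the 9 genes that rose by at least 1.5-fold (vertical axis, CPM on a log scale), 1 point per embryo with lines at group means. No gene overlaps between the groups, and Ndufa4l2 spreads most, from 14.8 to 44.0 CPM in CDKO.

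Ratios between paired genes ask whether a form changed its share relative to its partner, and do not depend on library scaling. The log2 ratio of counts (pseudocount 0.5) was compared by an exact two-sided permutation test over 495 arrangements, which cannot give a p under 0.00404. Of 8 ratios, 7 passed after Benjamini-Hochberg adjustment over the 8, and 3 separated the groups. Ndufa4l2 over Ndufa4 rose by 1.94 (-4.62 ± 0.447 in WT, n = 4; -2.68 ± 0.535 in CDKO, n = 8; exact permutation p = 0.00404, adjusted p = 0.0108), without overlap. Cox7a1 over Cox7a2 rose by 0.53 (exact permutation p = 0.00808, adjusted p = 0.0162) and Cox4i2 over Cox4i1 by 0.41 (exact permutation p = 0.0202, adjusted p = 0.0269), both with overlapping groups. Cox4i2 over Cox4i1 missed the threshold without WT embryo 1 (0.47, exact permutation adjusted p = 0.0582), 2 (0.32, 0.0808) or 4 (0.41, 0.0646). Cox6a2 and Cox6a1 both rose, and their ratio did not pass (0.60, exact permutation p = 0.0606, adjusted p = 0.0606), although it passed without CDKO embryo 1 (0.69, adjusted p = 0.0416, exact) or 6 (0.73, adjusted p = 0.0242, exact). Cox6b2 over Cox6b1 fell by 0.36 (exact permutation p = 0.0364, adjusted p = 0.0416), as Cox6b1 rose, from 157 ± 3.61 to 197 ± 16.1 CPM, and Cox6b2 did not pass. This ratio missed the threshold in 8 of the 12 omissions of 1 embryo (WT embryos 1, 2 and 4 and CDKO embryos 1 to 5), with values from -0.37 to -0.23.

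**Figure D5:**
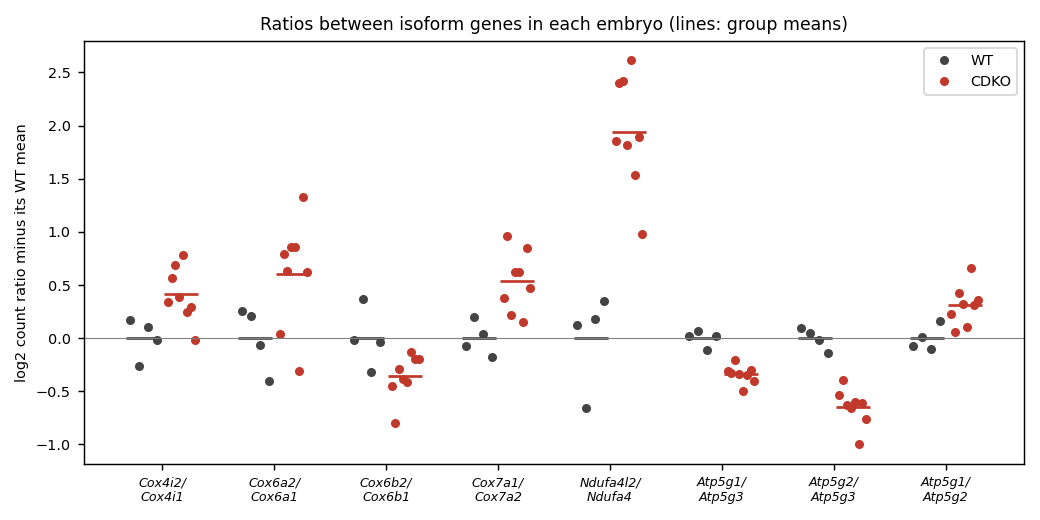
Log2 count ratio of 8 gene pairs, less its WT mean (vertical axis), 1 point per embryo with lines at group means. Ndufa4l2 over Ndufa4 lies 1.94 higher in CDKO, and Atp5g1 and Atp5g2 over Atp5g3 lie at -0.34 and -0.65, each without overlap.

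Complex V, the ATP synthase, has a catalytic F1 head, a peripheral stalk that holds it, and a membrane part, Fo, with the proton channel. Of 17 genes tested, 10 rose (58.8%, against 26.6% of all genes tested) and the median was 0.20. All 5 genes of the F1 head rose, with a median of 0.27. Their groups did not overlap, as in 17.5% of all genes tested in that direction. Atp5b, the catalytic beta subunit, was at 1723, 1730, 1674 and 1641 CPM in WT and at 1812, 1867 and 2022 CPM in CDKO (0.16, SE 0.04, adjusted p = 0.00308). Its call ended with GC and length trends removed (0.09, adjusted p = 0.105). Atp5a1, the alpha subunit, was at 1080, 1139, 1099 and 1101 CPM in WT and at 1256, 1337 and 1388 CPM in CDKO (0.27, SE 0.04, adjusted p = 1.77e-05). In both, every CDKO embryo lay above every WT embryo, although the fold changes were small.

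The peripheral stalk had the highest fold changes of complex V, with a median of 0.41. Of its 4 genes 3 rose, where 26.6% of all genes tested were higher. Atp5o was at 142, 141, 144 and 140 CPM in WT and at 181, 196 and 209 CPM in CDKO (0.47, SE 0.05, adjusted p = 1.29e-06). Atp5f1 was at 218, 214, 215 and 214 CPM in WT and at 278, 291 and 312 CPM in CDKO (0.45, SE 0.04, adjusted p = 7.65e-07). Both separated the groups. Atp5f1 shares 23.2% of its windows with other transcripts, and Atp5h, the other stalk gene that rose, shares 50.5%. Atp5o had no transcript to compare. In the Fo part 2 of 6 genes rose (33.3%), near the 26.6% of all genes tested, with a median of 0.11.

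Subunit c, which forms the rotating ring of Fo, is encoded by 3 genes with the same mature protein, Atp5g1, Atp5g2 and Atp5g3. Atp5g3 was at 343, 347, 346 and 347 CPM in WT and at 432, 455 and 545 CPM in CDKO (0.43, SE 0.06, adjusted p = 2.7e-05). Atp5g1 did not pass, at 31.4 ± 1.64 and 33.4 ± 2.81 CPM (0.09, SE 0.07), nor did Atp5g2, at 1.8 ± 0.119 and 1.55 ± 0.175 CPM (-0.22, SE 0.15). The ratio of Atp5g1 to Atp5g3 fell by 0.34 (-3.46 ± 0.0768 in WT, n = 4; -3.8 ± 0.0836 in CDKO, n = 8; exact permutation p = 0.00404, adjusted p = 0.0108), and that of Atp5g2 to Atp5g3 fell by 0.65 with the same p (exact). Both ratios separated the groups. Atp5g1 over Atp5g2 rose by 0.31 (exact permutation p = 0.0162, adjusted p = 0.0259). It missed the threshold without WT embryo 1 (0.28, adjusted p = 0.0646, exact), 2 (0.31, 0.0582) or 3 (0.28, 0.0554). For Atp5g2, 87.4% of windows occur in other transcripts, so its counts are uncertain. Of the genes that are not subunits, Cox7a2l, a factor that helps complexes III and IV associate, rose by 0.17 (SE 0.06, adjusted p = 0.0225), and Atp5s and Atp5sl did not pass (0.01 and -0.08).

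Many of these genes have processed pseudogenes, and how multimapping reads were treated is not stated in the sources used here. A near-identical copy, at least 200 bases at 95% identity or more in another gene, was found for 20 of the tested genes, of which 8 rose with a median of 0.18. Of the 60 without one, 40 rose and 1 fell, with a median of 0.26. Levels per length also differed. Among subunits expected in every cell, 13 with at least 20% shared windows had a median of 22.4 CPM per kilobase in WT, against 105 for the 61 others. Ndufs5, an obligatory complex I subunit with 31.1% shared windows, had 1 count in all 12 embryos. Ndufb4, Cycs and Atp5l, with 37.0%, 28.5% and 68.5% shared windows, stood at 2.29, 1.49 and 7.53 CPM per kilobase in WT. The counts of these genes are uncertain.

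Heart muscle markers moved in the same direction. Of 14 such genes, 12 rose, where 26.6% of all genes tested did, with a median of 0.78. The summed level of the 14 was 1615 to 2055 CPM in WT and 2490 to 4472 CPM in CDKO. With the mean log2 CPM of these markers as a covariate, 20 of the 82 genes were called higher and none lower. The median log2 fold change of the 82 was 0.16 with this covariate and 0.22 without it. All 20 were among the 49, and 16.5% of all genes were called higher in that fit. The 20 include Ndufb11, Ndufv3, Ndufb10, Ndufb6, Cox6a1, Ndufa4l2, Sdhc and Sdhd. Cox6a2 (0.63, adjusted p = 0.163), Cox7a1 (0.11, adjusted p = 0.778) and Cox4i2 (0.37, adjusted p = 0.284) were no longer called. The marker score did not overlap between the groups, so its part and that of the genotype cannot be fully told apart. The order of CDKO embryos differed between the measures mainly at embryo 6, with the lowest marker score, 6.54, and the highest median of the 82 genes. In the other CDKO embryos, a subset formed after these values were seen, score and median mostly rose together. They ran from embryo 1 (score 6.57, median 0.12) to embryo 2, with the highest score, 7.42, and a median of 0.33. A link between the measures was not tested. WT scores were 5.99 to 6.42.

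Few markers of other cell types passed the test, though the 9 primitive red cell markers tested had a median log2 fold change of -1.03. Only 1 of these 9 estimates was above 0. Their SEs were wide, 0.49 to 0.84, so not passing does not show equal levels. None of 9 primitive red cell markers passed by edgeR (1 was lower at an unadjusted p under 0.05, 1 with DESeq2 and 5 with limma-voom), with summed levels of 813 to 1360 CPM in WT and 37.7 to 1725 CPM in CDKO and Hba-a1 at 0. None of 11 yolk sac endoderm markers passed by edgeR or DESeq2 or at an unadjusted p under 0.05, and 2 were lower with limma-voom (642 to 2368 and 724 to 3526 CPM). None of 3 trophoblast and decidua markers tested passed by edgeR, DESeq2 or limma-voom, or at an unadjusted p under 0.05. Of the 3, Cdx2 was at 83.1 to 94.2 CPM in WT and at 7.43 to 82.5 CPM in CDKO. Every CDKO embryo thus lay below every WT embryo, as in 17.1% of all genes tested. The log2 fold change of Cdx2 was -0.74 (SE 0.43). The sum of all 8 listed, 85.6 to 97.9 and 10.7 to 130 CPM, was mostly Cdx2 in every embryo, and Cdx2 is a gene that the tail of the embryo also expresses. CDKO embryo 6 stood apart in these markers, where its score (mean log2 CPM) was 1.55 and the other embryos had scores of -1.3 to -0.24, with Prl8a2 at 35.9 CPM (at most 0.41 in the others) and Prl3d1 at 7.23 CPM (at most 0.77). It is also the embryo with the highest median of the 82 genes. Without it 48 genes were higher and 2 lower, with a median of 0.21, where 27.1% of all genes were higher. Of 8 neural markers 1 fell (605 to 737 and 528 to 775 CPM). With the red cell or the yolk sac score as a covariate, 46 and 50 of the 82 genes were called higher, where 24.1% and 28.1% of all genes were, and the median of the 82 was 0.18 and 0.22. With CDKO embryo 2, low in red cell markers, and WT embryo 1, low in yolk sac markers, left out, 46 were higher and none lower, with a median of 0.22. In that fit 23.1% of all genes were higher. The part of these cell types in the result was not tested.

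Genes that build or supply the respiratory chain are read against the 26.6% of all genes that were higher and the 24.9% that were lower. Of 37 assembly factor genes tested, 11 rose and 8 fell, near those shares, with a median of 0.00. The largest changes by p were in 2310016M24Rik (the row matching Cox14), which rose by 1.06 (SE 0.09), Cox19 by 0.73 (SE 0.06) and Bcs1l, which inserts the Rieske protein into complex III, by 0.72 (SE 0.07). Of 18 genes of the citric acid cycle and pyruvate dehydrogenase, 6 rose and 7 fell, with a median of 0.01. Suclg1 rose by 0.41 (SE 0.04), while Suclg2 and Pdhb fell by 0.28 and 0.31. Of 20 import and outer membrane genes 5 rose and 4 fell, also near those shares, with a median of -0.03. The import receptor genes Tomm22 and Tomm70a fell by 0.38 (SE 0.05) and 0.29 (SE 0.05), and Timm17b, of the inner membrane channel, rose by 0.27 (SE 0.06). Of 5 subunits or partners that the symbol rule leaves out, 3 rose, namely Atpif1 (0.46, SE 0.05), the inhibitor of ATP synthase, Higd1a (0.45, SE 0.09) and Higd2a (0.26, SE 0.05). Ndufab1 (-0.05, SE 0.07) and Usmg5 (-0.02, SE 0.07) did not pass.

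Regulators of mitochondrial biogenesis were divided. Of 16 tested, 3 rose and 6 fell, with a median of -0.10. Esrra, the nuclear receptor that activates many respiratory genes, rose from 23.5 ± 3.21 to 48.5 ± 4.26 CPM (1.04, SE 0.09, adjusted p = 2.66e-07). Its coactivator genes Ppargc1a (0.72, SE 0.17) and Ppargc1b (0.79, SE 0.14) were the others that rose. Of factors whose motifs were sought in the promoters, Nrf1, Gabpa and Yy1 were measured: Nrf1 was at -0.10 (SE 0.05, not passed), and Gabpa and Yy1 fell by 0.21 (SE 0.07) and 0.17 (SE 0.04). Tfam, which packages and transcribes mitochondrial DNA, fell by 0.28 (SE 0.04), and Peo1, the mitochondrial helicase, fell by 0.54 (SE 0.06). Of 17 glycolysis genes 10 rose and none fell by edgeR, DESeq2 or limma-voom, or at an unadjusted p under 0.05, with a median of 0.26. Pfkp (1.31, SE 0.17), Hk1 (1.06, SE 0.11) and Gpi1 (0.54, SE 0.09) had the lowest p. Eno1, among the 10 that rose, had very low counts, at 0.385 CPM in WT and 0.928 CPM in CDKO. Near-identical copies were not sought for the glycolysis genes, so their counts carry that uncertainty too.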

How the data were processed

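The deposited file holds raw read counts per gene symbol in 12 columns, 1 per embryo, as the authors made them. The submitters' processing notes name build mm9 and the tools FastQC, STAR, featureCounts and DESeq2. Their versions, the annotation, strandedness and the handling of multimapping reads: not given in the sources used here. Groups follow the genotype label of each embryo. The members, lists and tests were chosen with earlier results of these data known.

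The gene test was edgeR 4.0.16 (R 4.3.3) with TMM scaling, filterByExpr and robust dispersions, by the quasi-likelihood F test of genotype over all 12 embryos. Adjusted p is by Benjamini-Hochberg over 14412 genes, with a threshold of 0.05. The SE is the absolute log2 fold change over the square root of the F statistic, and CPM values are TMM-scaled. "Rose" and "fell" are used of genes past the threshold. The script was tested on simulated data. The alternatives were other scalings, filters and composition, DESeq2 1.42.0, limma 3.58.1 with voom, marker scores as covariates, removal of GC and length trends, a test against 1.2-fold, and omission of embryos. An alternative without mitochondrially encoded genes was not run, because no row used here carries such a symbol.

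All 86 symbols matched RefSeq, 83 directly and 3 by synonym, and 84 had a GENCODE M21 transcript, compared with BLAST 2.17.0. Genes named were the 2 highest and 2 lowest log2 fold changes of each complex, Cycs, Cyc1, 8 catalytic or much-studied subunits, the isoform pairs, the 3 lowest p of each other list except the cell type markers, and Tgif1 and Tgif2. Other genes named were chosen after their values were seen. Each library is 1 embryo, and p-values rest on the spread among embryos. Shared litters are not known. Total counts were 16802367 to 21346245 per embryo, and the median SE over the tested members was 0.06. The values of 1 complex I gene are not reported here, although it is included in the counts and medians.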

Additional observations from a re-analysis of the deposited data

Results flagged for a closer look

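In 4 of the 106 groups of embryos examined (3.77%), 1 embryo lay beyond the 95% limit of Dixon's test for an outlier, where chance gives about 1 in 20. CDKO embryo 2 had the highest Atp5g2 level of its group, 1.95 CPM against 1.41 to 1.59 CPM in the other CDKO embryos. WT embryo 1 had the highest Cycs level of its group, 6.03 CPM against 4.05 to 4.34 CPM, and the highest Uqcrb level, 36.6 CPM against at most 30.7 CPM in the others. WT embryo 3 had the lowest Ndufv1 level of its group, 143 CPM against 151 to 152 CPM, and without it Ndufv1 did not pass. Atp5g2, Cycs and Uqcrb share 87.4%, 28.5% and 43.2% of their windows with other transcripts and did not differ between the groups by the test.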

How the results depend on the processing

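No paired analysis was possible because the labels carry no replicate numbers and tie no WT embryo to a CDKO embryo. Of 49 genes that rose, 44 were called higher in every omission of 1 embryo (44 to 54 genes higher in all; the exceptions were Atp5j2, Cox7a2l, Ndufa10, Ndufv1 and Ndufv2), and 16 under every alternative run. Calls fell to 20 with the heart muscle score as a covariate and to 21 in the test against 1.2-fold. Over all genes tested the share that was higher also fell, from 26.6% to 16.5% and 14.4%. The number of lower genes, 1 as reported, was 2 with RLE scaling, DESeq2, limma-voom and a stricter count filter (Sdha and Ndufa12). It was 7 with GC and length trends removed, and 0 with upper-quartile scaling, library totals, no filter, the 50 most abundant genes left out, the red cell, heart muscle or yolk sac score as a covariate, the test against 1.2-fold, and CDKO embryo 2 and WT embryo 1 left out. It ranged from 0 to 2 over omissions of 1 embryo. The median log2 fold change was 0.12 with GC and length trends removed, and 0.16, 0.11 and 0.0887 in complexes I, II and V, while complex V had 0.11 with the heart muscle score. Cyc1 (-0.14) and Ndufs6 (-0.16) turned negative and passed with those trends removed. With CDKO embryo 2 and WT embryo 1 left out, 4 ratios missed the threshold in the exact test: Cox4i2/Cox4i1 0.45 (adjusted p = 0.0667), Cox6b2/Cox6b1 -0.30 (0.117), Cox7a1/Cox7a2 0.45 (0.0533) and Atp5g1/Atp5g2 0.32 (0.0533). Over omissions of 1 embryo, Cox4i2/Cox4i1 ranged from 0.32 to 0.47, Cox6b2/Cox6b1 from -0.46 to -0.23, Atp5g1/Atp5g2 from 0.26 to 0.36 and Cox6a2/Cox6a1 from 0.47 to 0.73. Pseudocounts of 1 and 5 changed no call on a ratio. The cause of these changes was not tested.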
